A study of Mus musculus with 11 samples.

Results

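The response to imiquimod (IMQ) was compared between the skin, to which the cream was applied, and the small intestine, away from the site of application. These RNA data hold no measure of IMQ itself in either tissue. All 11 RNA sequencing libraries of the series were used, and 18108 of the 45777 genes of the table, those with at least 1 count in all 11 libraries, were tested. The BALB/c mice were 8 to 10 weeks old and were shaved before treatment. They received Vaseline or 62.5 mg of cream with 5% IMQ daily on the back and right ear for 5 to 8 days. Skin was represented by 3 control samples (replicates 1 to 3) and 3 IMQ samples (replicates 4 to 6), and small intestine by 3 control samples (replicates 7 to 9) and 2 IMQ samples (replicates 10 and 11). All groups were of one strain, the labels name female or male mice without assigning a sex to a sample, and they do not state which tissues came from one mouse. The p-values therefore measure the spread between these samples only.

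IMQ is a ligand of TLR7, an endosomal receptor of single-stranded RNA that signals through the adaptor MyD88 in dendritic cells, macrophages and B cells. Applied to mouse skin, it induces a psoriasis-like dermatitis in which gamma delta T cells release IL-17, keratinocytes release chemokines and antimicrobial proteins, and neutrophils and monocytes enter. The small intestine instead carries a single layer of absorptive and secretory epithelium over a lamina propria rich in macrophages, T cells and plasma cells.

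Each gene had a log2 fold change of IMQ over control in either tissue, and the difference between them (small intestine minus skin) was tested as an interaction. The threshold for a call was an adjusted p of 0.05 (Benjamini-Hochberg, over all 18108 genes) by the quasi-likelihood test of edgeR. Genes were termed shared when called in the same direction in both tissues, and opposite when called in both in opposite directions. All 17 opposite genes had the interaction called as well, although this was not required. Genes were termed skin-only or small intestine-only when called in that tissue and in the interaction but not in the other tissue. Normalised counts given below are on a scale common to all 11 libraries, and IMQ and control groups are said not to overlap when every sample of one lies above every sample of the other.

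Library totals were 44995414 to 58526384 counts. Skin control replicate 2 stood apart. For 138 genes of the small intestine, chosen as low in the other skin libraries, its counts, as a share of the library, had a median of 0.886% of that in control gut, against 0 to 0.0196% in the other skin libraries. Its 8 hair follicle markers summed to 5.28 CPM (the share of the library's counts scaled to 1e6), against 1490 and 2380 in the other skin controls and 7.13 to 12.1 in IMQ skin. Without it the interaction was called for 1072 genes in place of 462, and 279 of the 284 shared, 14 of the 17 opposite, 235 of the 247 skin-only and 118 of the 131 small intestine-only genes kept their class. Enterocyte markers summed to at least 26300 CPM in every small intestine library, and keratinocyte markers to at least 12100 CPM in every skin library and at most 3.52 CPM in the small intestine.

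The interaction was called for 462 genes, which is 2.55% of those tested. The response was more positive in the small intestine for 307 of them (1.7%) and more positive in skin for 155 (0.856%). The estimates of the 2 tissues had opposite signs for 305 of the 462, and for 7706 of the 15877 genes with no call in any contrast. A called difference favours opposite signs, so the count of 305 is a description only. A call in both tissues as well was reached by only 17 of the 305. In skin, 902 genes were higher (4.98%) and 944 lower (5.21%) in IMQ, and in the small intestine 623 were higher (3.44%) and 39 lower (0.215%). A further 1298 genes were called in skin, and 230 in the small intestine, without a call in the other tissue or in the interaction. For these genes the data do not show that the tissues differed.

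**Figure D1:**
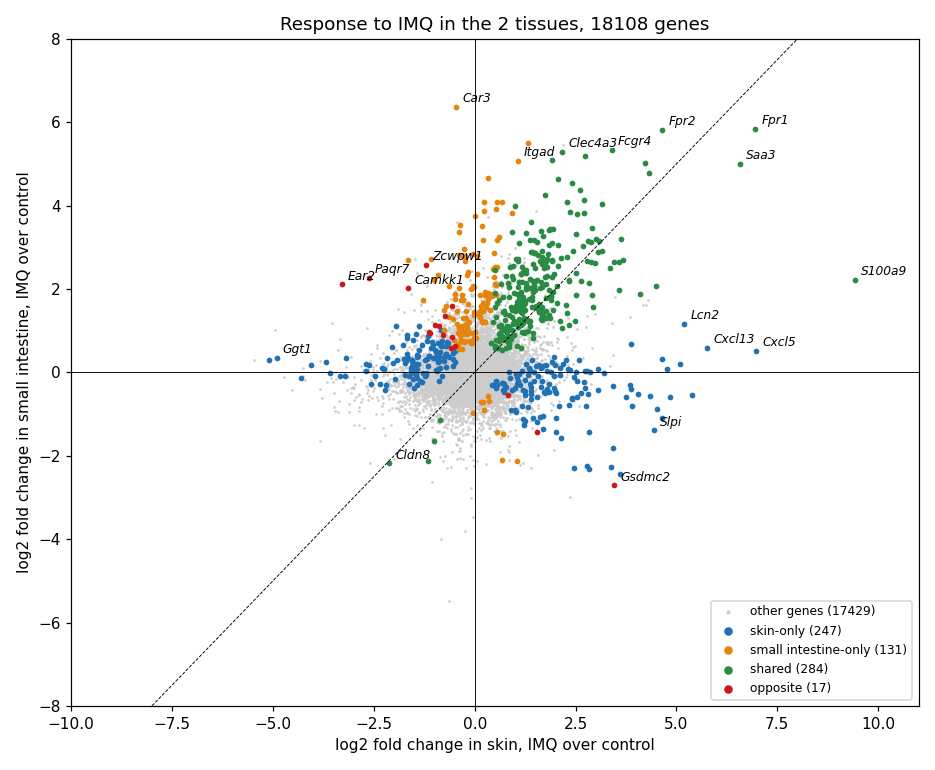
Log2 fold change in skin (horizontal axis) against that in small intestine (vertical axis), IMQ over control, with each point 1 of 18108 genes, coloured by class. The 284 shared genes lie almost all in the upper right, the 17 opposite genes in the upper left and lower right, and the dashed line marks equal responses.

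Shared responses were nearly all rises, and many of the named ones belong to receptors and signaling genes of myeloid cells. The 284 shared genes were 1.57% of those tested and comprised 15.4% of the genes called in skin and 42.9% of those called in the small intestine. Of these, 280 were higher in both tissues and 4 lower in both. Among the genes higher in IMQ, the shared ones made up 31% in skin and 44.9% in the small intestine, and among the lower genes 0.424% and 10.3%. All 284 were free of overlap between IMQ and control in both tissues, which held in the same direction for 6.44% of all genes. Their median log2 fold change was 1.33 in skin and 1.85 in the small intestine, beside -0.035 and -0.038 over all genes tested. The class was chosen by the tests in both tissues, so that count and these medians are descriptions only. Since these are bulk samples, a change in the number of cells of a type and a change in RNA per cell cannot be told apart.

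Regulatory sequence of the shared genes is shown because a short motif was present near more of their starts than over all tested genes, although most of their windows lacked it. PU.1 is a transcription factor of myeloid cells and B cells that binds purine-rich DNA around GAGGAAGT. Windows from 250 bases before to 50 bases after the RefSeq start site (GRCm38.p6) were available for 12652 of the tested genes, of which 3.15% held GAGGAAGT on either strand. Among the shared genes 36 of 219 windows held it (16.4%). The corresponding shares were 3 of 92 (3.26%) for skin-only genes that rose, 3 of 92 (3.26%) for small intestine-only genes that rose and 0 of 14 for opposite genes. Neighbouring paralogs such as Pira1, Pira2 and Pirb, and Bcl2a1a, Bcl2a1b and Bcl2a1d, were among the 36, so these windows are not independent of each other. The 120 bases before the start of 4 shared genes are given with the motif, on either strand, in capitals. They were chosen after their values were seen: Fcgr4 encodes an activating receptor for IgG, Vav1 a guanine nucleotide exchange factor of leukocytes, Tlr1 a receptor of bacterial lipopeptides, and Cd72 an inhibitory lectin of B cells and macrophages.
Fcgr4 (chr1:171018806-171018925, plus strand): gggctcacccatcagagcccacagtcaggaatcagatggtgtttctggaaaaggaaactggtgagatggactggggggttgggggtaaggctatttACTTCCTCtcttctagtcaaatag
Vav1 (chr17:57278980-57279099, plus strand): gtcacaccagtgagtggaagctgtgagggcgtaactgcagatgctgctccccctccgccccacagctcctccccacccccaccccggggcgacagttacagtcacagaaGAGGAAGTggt
Tlr1 (chr5:64933559-64933678, minus strand): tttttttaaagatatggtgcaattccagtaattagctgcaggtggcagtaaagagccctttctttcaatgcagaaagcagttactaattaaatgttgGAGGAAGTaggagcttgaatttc
Cd72 (chr4:43454627-43454746, minus strand): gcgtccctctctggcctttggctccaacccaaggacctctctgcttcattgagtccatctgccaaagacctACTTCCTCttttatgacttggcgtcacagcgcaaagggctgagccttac

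Other motifs were searched on both strands in the same windows. The interferon-stimulated element core GAAANNGAA was present in 17.4% of the shared windows and 7.35% of all, and 4 shared windows held it together with GAGGAAGT. The C/EBP-type motif TTNNGNAAT was in 12.8% and 7.43%, and the AP-1 motif TGANTCA in 6.85% and 5.37%. The E-box CACGTG, at 5.02% and 9.56%, and the NF-kappaB-type motif GGGANNNCC, at 17.8% and 23.1%, were held by a smaller share of the shared windows than of all. A match describes the letters of the window and does not show that a factor was bound.

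By the smaller of the fold changes in the tissues, the genes Fpr1, Saa3 and Fpr2 led the shared rises. Fpr2, a formyl peptide receptor of neutrophils and monocytes, had 44.1, 74.6 and 21.2 normalised counts in control skin and 1304, 874 and 1291 in IMQ skin. In the small intestine it had 25.1, 39.3 and 54.3 in controls and 2502 and 2027 in IMQ. The groups were far apart in both tissues, with a log2 fold change of 4.65 (SE 0.41, adjusted p = 0.00011) in skin and 5.82 (SE 0.45, adjusted p = 3e-05) in the small intestine. The related Fpr1 rose by 6.95 and 5.84 on the log2 scale. For neither gene was the interaction called (adjusted p = 0.33 and 0.54).

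Siglece, an inhibitory lectin that binds sialic acid, had 103, 147 and 86.2 normalised counts in control skin, 2508, 1996 and 2145 in IMQ skin, 277, 272 and 206 in control small intestine and 7188 and 6730 in IMQ small intestine. Its response was similar in size in the tissues, 4.31 and 4.79 on the log2 scale, and the 95% interval of the difference was -0.15 to 1.1. Clec12a, an inhibitory lectin of myeloid cells, rose by 3.08 in skin and 3.15 in the small intestine, with an interval of the difference of -0.52 to 0.67. For 82 of the 284 shared genes this interval lay within a 2-fold difference in either direction. For the others, responses that differ by more than 2-fold were compatible with the data even where the interaction was not called.

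Fcgr4 had 106, 329 and 87 normalised counts in control skin, 1895, 1633 and 1904 in IMQ skin, 586, 379 and 524 in control small intestine and 22270 and 17830 in IMQ small intestine. It rose by 3.39 in skin and 5.34 in the small intestine, and the difference of 1.94 (SE 0.59) did not pass the threshold (adjusted p = 0.12). Skin control replicate 2 was the highest of the skin controls for this gene, and without it the difference was smaller, at 1.11, but passed (adjusted p = 0.0425). Saa3, an acute phase protein made by macrophages and epithelia, rose by 6.58 in skin and 5.00 in the small intestine, where the IMQ samples had 183 and 1191 normalised counts. Klra2, a receptor of the Ly49 family, rose by 3.62 and 3.21, and Pou2f2, which encodes the transcription factor Oct-2, by 3.16 and 4.04. The cytokine Il1b rose by 2.81 and 3.14, and the chemokines Ccl3 and Ccl4 by 2.89 and 3.46 in skin and by 3.12 and 2.65 in the small intestine. None of these 6 genes had a called interaction.

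**Figure D2:**
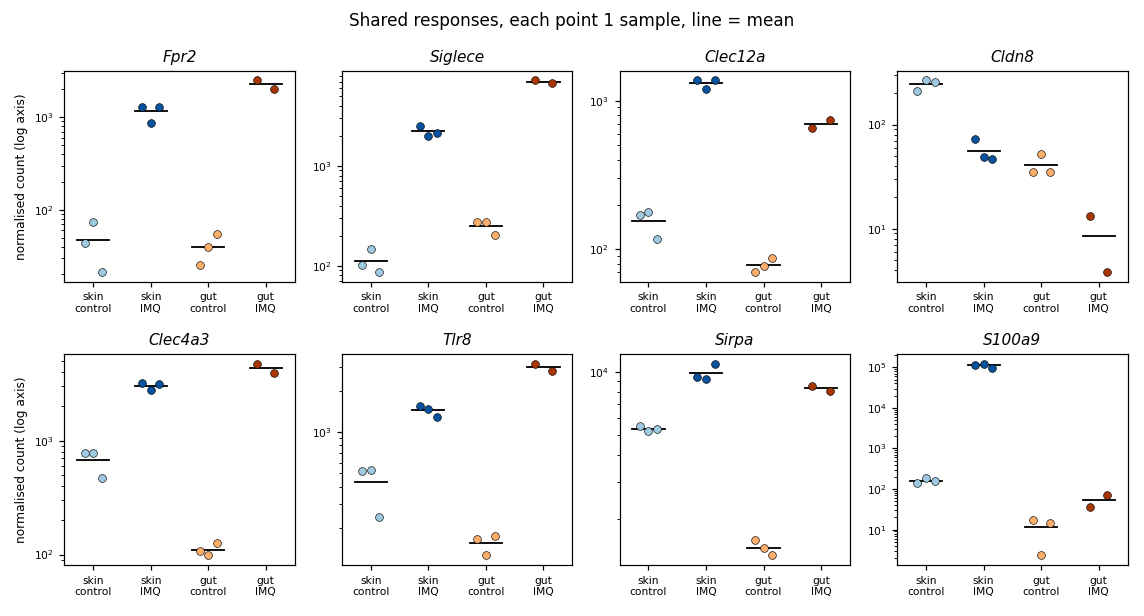
Normalised counts on a log axis for 8 shared genes, each point 1 sample and each line the mean of its group of 3 skin control, 3 skin IMQ, 3 small intestine control and 2 small intestine IMQ samples. Fpr2, Siglece and Clec12a rose and Cldn8 fell in both tissues with no called difference, whereas Clec4a3, Tlr8 and Sirpa rose more in the small intestine and S100a9 more in skin.

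Only 4 genes were lower in both tissues. Cldn8, a claudin of tight junctions, had 210, 266 and 257 normalised counts in control skin and 72.4, 49 and 46.7 in IMQ skin, and 35.1, 52 and 35.1 in control small intestine and 13.3 and 3.82 in IMQ. The IMQ samples were below all controls in each tissue, with log2 fold changes of -2.12 (adjusted p = 0.0023) and -2.18 (adjusted p = 0.022). Cyp17a1, which encodes a hydroxylase of steroid synthesis, fell by 1.15 in skin and by 2.11 in the small intestine. The long noncoding RNA AI427809 fell by 1.02 and 1.63. The gene 1700019D03Rik fell by 0.86 and 1.13, and its call in skin was lost without skin control replicate 2.

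The shared rise differed in size between the tissues for 43 of the 284 genes. It was larger in the small intestine for 38 of these and larger in skin for 5, namely S100a9, Cxcl1, Tlr1, Tlr13 and Gm5150, of which the last was named after its values were seen. Clec4a3, a C-type lectin receptor of monocytes and macrophages, had 777, 773 and 473 normalised counts in control skin, 3187, 2790 and 3138 in IMQ skin, 107, 98.2 and 127 in control small intestine and 4748 and 3945 in IMQ small intestine. Control levels were lower in the small intestine than in skin, whereas IMQ levels were higher. The log2 fold change was 2.17 in skin and 5.29 in the small intestine, with a difference of 3.12 (SE 0.28, adjusted p = 0.0006). The neighbouring paralog Clec4a1 rose by 2.05 and 4.64 (difference 2.58, adjusted p = 0.0011). Counts of such paralogs can share reads, since how multiply matching reads were counted is not given in the sources used here.

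Sirpa, the myeloid receptor of the "do not eat me" signal CD47, had 5536, 5203 and 5351 normalised counts in control skin and 9432, 9220 and 10950 in IMQ skin. In the small intestine it had 1582, 1445 and 1336 in controls and 8601 and 8126 in IMQ. The response was 0.88 in skin and 2.52 in the small intestine (difference 1.64, SE 0.16, adjusted p = 0.00095), and the call was kept in all 11 fits that left out 1 library. S100a9, a subunit of calprotectin made by neutrophils and inflamed keratinocytes, went the other way. It had 140, 188 and 158 normalised counts in control skin, 113800, 123300 and 97750 in IMQ skin, 17.6, 2.31 and 14.9 in control small intestine and 36.8 and 72.6 in IMQ small intestine. The rise of 9.43 in skin exceeded that of 2.21 in the small intestine (difference -7.22, SE 0.70, adjusted p = 0.00091). Cxcl1, which attracts neutrophils through CXCR2, rose by 4.10 in skin and 1.89 in the small intestine (difference -2.21, adjusted p = 0.027).

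Signaling through receptors with immunoreceptor tyrosine-based activation motifs (ITAM) was the list with the most shared genes. Of 15 tested genes of Src-family and ITAM signaling, 13 were higher in skin, 9 were higher in the small intestine, and 9 were shared, with a median log2 fold change of 1.36 in skin and 1.56 in the small intestine. The kinases Syk (1.28 and 2.46) and Fgr (1.87 and 3.45) rose in both tissues and more in the small intestine (adjusted p = 0.017 and 0.024 for the interaction). Zap70, the Syk homolog of T cells, rose in skin by 1.91 and was at -0.08 in the small intestine, but the interaction was not called (adjusted p = 0.088) and Zap70 was skin-only without skin control replicate 2 and by DESeq2. Of 10 Fc receptors and ITAM adaptors 5 were shared, among them Fcer1g, the common gamma chain (1.94 and 3.45, interaction adjusted p = 0.022), Tyrobp, which encodes DAP12 (1.51 and 1.99), and Fcgr1 (1.63 and 1.44).

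Toll-like receptors, to which the target of IMQ belongs, differed among themselves in how the response of the tissues compared. Of 17 receptors and adaptors, 9 were higher in skin, 9 higher in the small intestine and 7 shared. Tlr7 had 409, 318 and 198 normalised counts in control skin and 710, 826 and 603 in IMQ skin, and 286, 253 and 237 in control small intestine and 562 and 610 in IMQ. All IMQ samples were above the controls of their tissue, and the log2 fold changes of 1.21 and 1.18 differed by -0.03 (95% interval -0.83 to 0.77). Tlr7 was called in both tissues in only 4 of the 11 fits without 1 library. Tlr8, the neighbour of Tlr7 in sequence and function, had 524, 530 and 240 in control skin, 1551, 1487 and 1296 in IMQ skin, 166, 126 and 176 in control small intestine and 3163 and 2806 in IMQ. It rose by 1.75 in skin and by 4.26 in the small intestine (difference 2.51, SE 0.39, adjusted p = 0.009). Tlr9, a receptor of unmethylated CpG DNA, rose in the small intestine (2.57, adjusted p = 0.0015) and was at 1.02 in skin (adjusted p = 0.072), and the interaction was not called (adjusted p = 0.12). Tlr1 (2.17 and 1.05) and Tlr13 (2.35 and 1.14), a receptor of bacterial ribosomal RNA, rose more in skin (adjusted p = 0.04 for both). On the deposited FPKM scale, which allows levels of different genes to be compared per transcript length, Tlr8 exceeded Tlr7 in IMQ small intestine (8.92 ± 1.31 against 2.11 ± 0.043, SD, n = 2), whereas Tlr7 was the higher of the pair in control small intestine (0.918 ± 0.148 against 0.468 ± 0.062, SD, n = 3). Irf5, a transcription factor downstream of MyD88, was small intestine-only, at 0.30 in skin and 1.67 in the small intestine. Without skin control replicate 2, Tlr9 and Irf5 were shared.

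Other effector systems of phagocytes held shared genes as well. Of 10 genes of the NADPH oxidase, nitric oxide and arginase, 5 were shared, including the oxidase subunit Cybb (1.46 and 2.07), and the interaction was called for 0 (2 at an unadjusted p under 0.05, 1 by DESeq2 and 0 by limma-voom). Of 12 complement genes 4 were shared. C1qa, C1qb and C1qc, the chains of the first component made by macrophages, rose by 1.38, 1.57 and 1.45 in skin and by 2.02, 2.81 and 2.59 in the small intestine, again with 0 called interactions in the list (5 at an unadjusted p under 0.05, 3 by DESeq2 and 0 by limma-voom). Of 9 leukocyte integrins 4 were shared and 2 small intestine-only. Itgb2, the common beta chain of leukocyte integrins, rose by 1.83 and 3.42 (interaction adjusted p = 0.038). Icam1, a ligand of these integrins, rose by 0.55 and 1.67 (adjusted p = 0.028), and Slc11a1, a metal transporter of phagosomes, by 2.55 and 3.80 (adjusted p = 0.028).

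The sums of macrophage and neutrophil markers, which partly consist of these shared genes, were higher in IMQ as well. Not all marker sums rose. Those of plasma cell, Paneth, goblet and T cell markers were lower in each IMQ small intestine library than in every control. Of the macrophage markers, Adgre1 and C1qa are shared genes, Cd68 was small intestine-only and Csf1r had no call. The 4 macrophage markers (Cd68, Adgre1, Csf1r and C1qa) summed to 248 to 390 CPM in control and 670 to 835 in IMQ skin, and to 152 to 232 in control and 518 and 479 in IMQ small intestine. The 6 neutrophil markers summed to 11.8 to 18.6 CPM in control and 111 to 143 in IMQ skin, and to 4.25 to 4.89 and 33.3 and 31.4 in the small intestine. In the IMQ small intestine Csf3r, itself a shared gene, carried nearly all of that sum, and the neutrophil granule gene Ngp had 0 counts in both libraries. The part of these cell types in the shared rise was not tested.

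Opposite responses were few. The 17 opposite genes, 0.0939% of those tested, comprised 3 that rose in skin and fell in the small intestine and 14 with the reverse pattern. All 17 were free of overlap in both tissues, in opposite directions. Among the 15877 genes with no call in any contrast, 839 were free of overlap in both tissues, in the same or in opposite directions. The 839 are therefore not a matched background. The class was chosen by tests on the same values, so the count of 17 is a description only. Those that rose in skin included 2 genes of pyroptosis, the inflammatory cell death in which caspases cleave pore-forming gasdermins. Gsdmc2, a gasdermin, had 121, 63.3 and 54.1 normalised counts in control skin and 653, 1217 and 758 in IMQ skin, but 385, 838 and 982 in control small intestine and 175 and 48.4 in IMQ. The log2 fold change was 3.46 in skin (SE 0.53, adjusted p = 0.0028) and -2.71 in the small intestine (SE 0.61, adjusted p = 0.033). The difference of -6.16 (SE 0.82, adjusted p = 0.0048) was called in all 11 fits without 1 library, although Gsdmc2 kept its class in 7. Its near-identical paralog Gsdmc4, skin-only by its calls, was at 2.79 and -2.23 (difference -5.03, adjusted p = 0.0098), and reads of the 2 genes may not be separable. Gsdmc4 was opposite by DESeq2 and by a fit of each tissue alone.

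Casp1, the protease that activates IL-1beta and IL-18, had 1025, 1349 and 1159 normalised counts in control skin and 2024, 1982 and 2286 in IMQ skin. In the small intestine it had 8699, 9310 and 9097 in controls and 5945 and 6365 in IMQ. Levels were higher throughout the small intestine, and the tissues moved towards each other, with 0.83 in skin and -0.55 in the small intestine (difference -1.39, SE 0.18, adjusted p = 0.0037). The fall in the small intestine was near the threshold (adjusted p = 0.046), and Casp1 kept its class in 2 of the 11 fits without 1 library. Among 13 genes of the inflammasome and gasdermin list, 8 were higher in skin, 1 higher and 2 lower in the small intestine, and 5 had a called interaction, all more positive in skin. The adaptor Pycard (ASC) was at 0.56 and -0.31 (adjusted p = 0.038), with the interaction called in 2 of the 11 fits without 1 library. Mab21l3, of the Mab-21 family, was the remaining gene of this direction, with 540 to 612 normalised counts in control and 1564 to 1761 in IMQ skin, and 27.6 to 53.2 in control and 16.4 and 12.7 in IMQ small intestine. It rose by 1.53 and fell by 1.44.

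**Figure D3:**
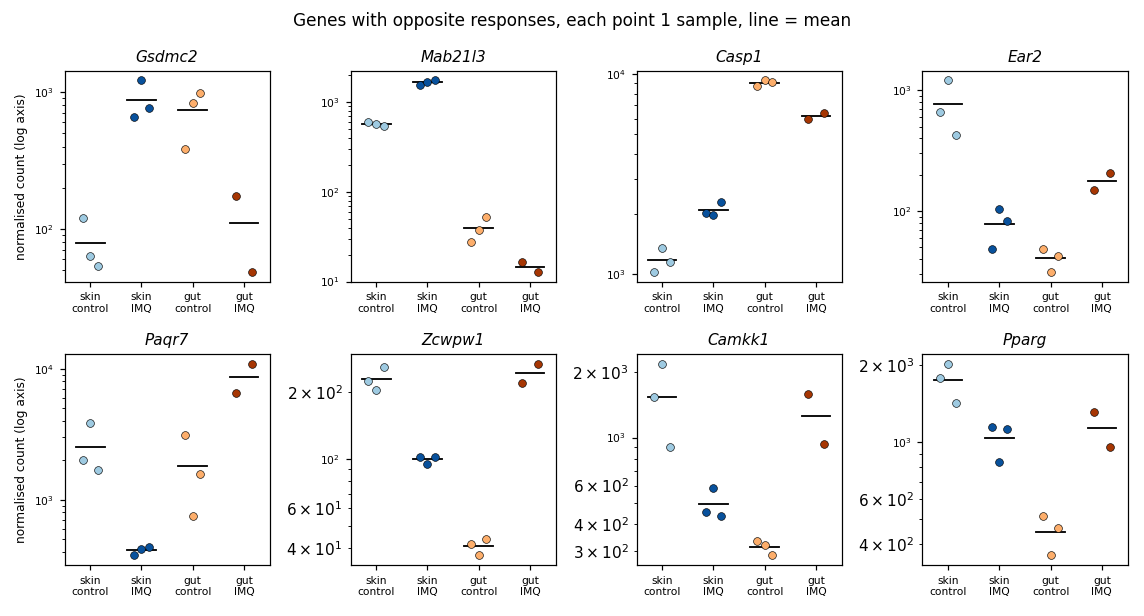
Normalised counts on a log axis for 8 opposite genes, each point 1 sample and each line the mean of its group. Gsdmc2, Mab21l3 and Casp1 were higher in IMQ skin and lower in IMQ small intestine than in the controls, and Ear2, Paqr7, Zcwpw1, Camkk1 and Pparg showed the reverse.

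Of the 14 genes that fell in skin and rose in the small intestine, Ear2 differed most. It encodes a ribonuclease of eosinophils and macrophages with near-identical paralogs. Ear2 had 665, 1204 and 428 normalised counts in control skin and 48.9, 104 and 81.9 in IMQ skin, and 49, 31.2 and 42.6 in control small intestine and 149 and 205 in IMQ. Its log2 fold change was -3.29 in skin (SE 0.41, adjusted p = 0.00088) and 2.11 in the small intestine (SE 0.45, adjusted p = 0.024), a difference of 5.40 (SE 0.60, adjusted p = 0.0018). Its paralog Ear10 was not tested and was chosen after its values were seen. The raw counts of Ear10 were 12, 14 and 11 in control and 2, 3 and 3 in IMQ skin. In the small intestine they were 0 in all controls and 5 and 3 in IMQ. Ear1, also untested, went the other way in skin, with 3, 0 and 8 raw counts in control and 33, 66 and 105 in IMQ. It had 0 in all small intestine libraries. Reads of the paralogs may not be separable. Of 17 eosinophil genes and eotaxins 9 were tested, and Ear2 was the 1 opposite gene among them. The eotaxin receptor Ccr3 was at -0.84 and -0.32, neither called, and the granule genes Prg2 and Epx, with at most 24 counts in any library, were not tested.

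Zcwpw1, a reader of histone methylation, had 224, 204 and 258 normalised counts in control skin and 102, 95.1 and 102 in IMQ skin, and 41.4, 37 and 43.6 in control small intestine and 220 and 267 in IMQ. The groups were tight, the log2 fold changes were -1.20 and 2.58 (difference 3.77, SE 0.28, adjusted p = 0.00045), and it alone of the 17 kept its class in all 11 fits without 1 library. Camkk1, a kinase that activates calmodulin-dependent kinases, had 1540, 2197 and 904 normalised counts in control and 455, 586 and 434 in IMQ skin, and 331, 319 and 285 in control and 1586 and 936 in IMQ small intestine. It fell by 1.65 and rose by 2.02 (difference 3.67, adjusted p = 0.0032). Paqr7, a membrane progesterone receptor, had 2003, 3875 and 1676 in control and 375, 417 and 437 in IMQ skin, and 3098, 752 and 1571 in control and 6501 and 10950 in IMQ small intestine. The controls of the small intestine were widely spread, and the log2 fold changes were -2.62 and 2.27.

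Several regulators of metabolism and survival were in the same group. Pparg, the nuclear receptor of adipocyte differentiation that is also expressed in macrophages and epithelia, had 1785, 2024 and 1414 normalised counts in control and 1148, 839 and 1121 in IMQ skin, and 512, 360 and 462 in control and 1307 and 956 in IMQ small intestine. It was at -0.75 (adjusted p = 0.037) and 1.35 (adjusted p = 0.0049). Without skin control replicate 2 the skin call of Pparg was lost, as were those of Ephx1, the microsomal epoxide hydrolase, and Rab7b, a small GTPase of endosomes, and all 3 became small intestine-only. Bcl2, which inhibits apoptosis, was at -0.78 and 0.89 (difference 1.67, adjusted p = 0.0048). Cdr2, an antigen of paraneoplastic cerebellar degeneration, was at -1.14 and 0.96, and Dipk2a at -1.12 and 0.95. The other opposite genes were Rdx, which encodes radixin (-0.49 and 0.64), the lipid flippase gene Atp8b2 (-0.59 and 0.59), the solute carrier Slc35e3 (-0.57 and 0.86), and the pseudogene Gm7902 (-0.99 and 1.13).

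A response of skin alone was called for 247 genes (1.36%), 132 higher and 115 lower in IMQ. Their estimates in the small intestine were under 0.5 in absolute size for 174 of the 247. This is a smaller share than among the genes with no call in any contrast, 13518 of 15877. Of 8 tested genes of the IL-23 and IL-17 axis, 4 were higher in skin and 1, Il23r, was skin-only. Of 2 tested neutrophil chemoattractants, Cxcl5 was skin-only and Cxcl1 shared, and of 6 tested keratinocyte antimicrobial and alarmin genes, 5 were higher in skin and 3 skin-only. Cxcl5, a neutrophil chemokine of epithelia, had 2.45, 2.04 and 5.49 normalised counts in control and 154, 560 and 633 in IMQ skin. In the small intestine it had 35.1, 34.6 and 75.6 in controls and 70.5 and 68.8 in IMQ. IMQ skin was above all other groups, whereas the groups of the small intestine overlapped, with log2 fold changes of 6.98 and 0.51 (difference -6.47, SE 0.92, adjusted p = 0.006). Il23r, the receptor of IL-23 on T cells that make IL-17, had 14.7, 12.3 and 11.8 in control and 113, 197 and 260 in IMQ skin, and 32.6, 41.6 and 39.4 in control and 68.5 and 52.2 in IMQ small intestine. It was at 3.87 and 0.67 (difference -3.19, adjusted p = 0.0083).

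Receptor segments and signaling genes of gamma delta T cells formed part of the strongest skin-only rises. Trgv2 had 5.72, 11.2 and 5.49 normalised counts in control and 75.3, 156 and 221 in IMQ skin, against 118, 63.5 and 97.9 in control and 56.2 and 68.8 in IMQ small intestine (difference -4.92, SE 0.67, adjusted p = 0.0052). Tcrg-C2 was at 4.06 in skin and -0.52 in the small intestine, and Trdc, the constant region of the delta chain, at 2.80 and -0.51. For Trdc the interaction was called in 2 of the 11 fits without 1 library. Blk, a kinase of B cells and of gamma delta T cells that make IL-17, was at 5.08 and 0.20. Gene segments of the receptor resemble each other, so their counts are uncertain. Of the 16 genes of the T cell list, edgeR called 2 in skin, Trdc and Pdcd1 (3.44), and 1 in the interaction, whereas DESeq2 called 7 and 6 and limma-voom 3 and 0. By edgeR Cd3d, Cd3e and Cd3g were called in neither tissue, at 1.25 to 1.42 in skin and -0.53 to -0.71 in the small intestine, and adjusted p for the interaction was 0.13 to 0.17. DESeq2 called 3 of the 4 T cell markers in skin and 3 in the interaction. Without skin control replicate 2, which held the most Cd3 counts of the skin controls, Cd3e and Cd3g became skin-only.

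Lcn2, an iron-sequestering antimicrobial protein, had 198, 164 and 178 normalised counts in control and 3775, 6408 and 9619 in IMQ skin, and 84.1, 79.7 and 91.5 in control and 138 and 244 in IMQ small intestine. It rose by 5.19 in skin and was at 1.16 in the small intestine (difference -4.04, adjusted p = 0.0032). Slpi, a protease inhibitor of epithelia, had 45.7, 66.4 and 39.2 in control and 1426, 1272 and 588 in IMQ skin, but 437, 297 and 282 in control and 122 and 138 in IMQ small intestine. Its 2 groups in the small intestine did not overlap, and the estimate there was -1.39 (adjusted p = 0.095). By DESeq2 and by a fit of each tissue alone Slpi was opposite. Zc3h12a, an RNase that limits IL-17 signaling, was at 2.73 and 0.04, the alarmin Il33 at 2.0 and -0.50, and the cytokine Lif at 1.89 and 0.01. Bcl3, a regulator of NF-kappaB, was at 1.96 and 0.36 (difference -1.59, adjusted p = 0.0048). The chemokine receptors Ccr1 (2.02 and -1.09) and Cxcr6 (3.20 and -0.02), the selectin Selp (2.35 and 0.07) and the mast cell enzyme gene Hdc (2.57 and 0.31) were skin-only as well. Ccr1, whose groups in the small intestine did not overlap, was opposite by DESeq2 and by a fit of each tissue alone. For Cxcr6, Selp and Hdc the interaction was called in 3, 2 and 3 of the 11 fits without 1 library.

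Cxcl13, which attracts B cells into follicles, had 208, 180 and 168 normalised counts in control and 5460, 6077 and 18540 in IMQ skin, and 79.1, 103 and 382 in control and 198 and 376 in IMQ small intestine. It was at 5.76 and 0.59 (difference -5.16, adjusted p = 0.021). Cd22, an inhibitory receptor of B cells, was at 2.83 and -1.42 (difference -4.25, adjusted p = 0.0031), and 3 of 7 tested genes of the B cell and follicle list were skin-only. The defining B cell genes Cd79a and Ms4a1 had at most 14 counts in any skin library. The metalloproteinases Mmp13 (3.38 and -2.27) and Mmp9 (1.69 and -1.36) had estimates of opposite sign with a called interaction (adjusted p = 0.0093 and 0.011), and the lower levels in the small intestine did not pass the threshold (adjusted p = 0.11 and 0.093). Mmp9 was opposite without skin control replicate 2. Both metalloproteinases were opposite by DESeq2 and by a fit of each tissue alone, and Cd22 was opposite by DESeq2 and limma-voom. The other strong rises by the size of the difference were Tcf23, a basic helix-loop-helix factor (4.53 and -0.89), Lgi2 (3.42 and -0.32) and the pantetheinase gene Vnn3 (2.77 and -0.80).

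Among the skin-only genes that fell, Ggt1, a gamma-glutamyl transferase of brush borders and other epithelia, had 271, 228 and 507 normalised counts in control and 8.8, 10.2 and 14.3 in IMQ skin, and 24360 to 34240 in control and 35840 and 40090 in IMQ small intestine. It was at -4.91 and 0.35 (difference 5.26, SE 0.46, adjusted p = 0.00059). The alcohol dehydrogenase gene Adh6a (-5.09 and 0.30) and Dab1, an adaptor of reelin signaling (-4.30 and -0.14), fell likewise. Mycn, a transcription factor of growing hair follicles, had 1241, 191 and 1621 normalised counts in control and 57.7, 46.2 and 78.1 in IMQ skin, and Scube3 had 1983, 283 and 1713 and 101, 113 and 96.2. For both, skin control replicate 2 lay between the other controls and the IMQ samples. Its sum of hair follicle markers, at 5.28 CPM, was instead just below that of IMQ skin (7.13 to 12.1). The part of hair follicle content was not tested. Their interaction was called in 1 of the 11 fits without 1 library. Of 15 tight junction genes, 6 were lower in skin, 1 was lower in the small intestine, and 2 were skin-only. These were Cldn3 (-3.58 and -0.01) and Marveld2, which encodes tricellulin (-1.29 and -0.22). For Marveld2 the interaction was called in 3 of the 11 fits without 1 library. Ocln was lower in skin (-1.20) and at -0.45 in the small intestine, with no called interaction (adjusted p = 0.3). Tjp1 and Cldn4 were called in neither tissue nor in the interaction.

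Much of the keratinocyte response was not tested, since its genes had 0 counts in at least 1 library of the small intestine. Only 2 of 18 cornified envelope and stress keratin genes were tested, of which Tgm3, a transglutaminase of the cornified layer, was at 2.70 and -0.24 (adjusted p = 0.03). Krt16 had 4517 to 9883 raw counts in control and 69874 to 181545 in IMQ skin, and 0 in 4 of the 5 small intestine libraries. S100a8 had 32 to 116 raw counts in control and 61716 to 79344 in IMQ skin, and at most 11 in the small intestine, with 0 in 1 library. Il17a had 0 in all skin controls, 80, 71 and 243 in IMQ skin, 4, 11 and 9 in control and 5 and 0 in IMQ small intestine. The same filter left out much of the gut epithelium, whose genes had 0 counts in skin libraries. Only 1 of 8 enterocyte markers and 4 of 12 Reg lectin and goblet genes were tested. Cd300e, chosen after its values were seen, was also untested. It had 0, 32 and 0 raw counts in control and 2089, 1518 and 1674 in IMQ skin. In the small intestine it had 34, 36 and 33 in control and 6951 and 5462 in IMQ. Genes left out by the filter are outside every class above.

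**Figure D4:**
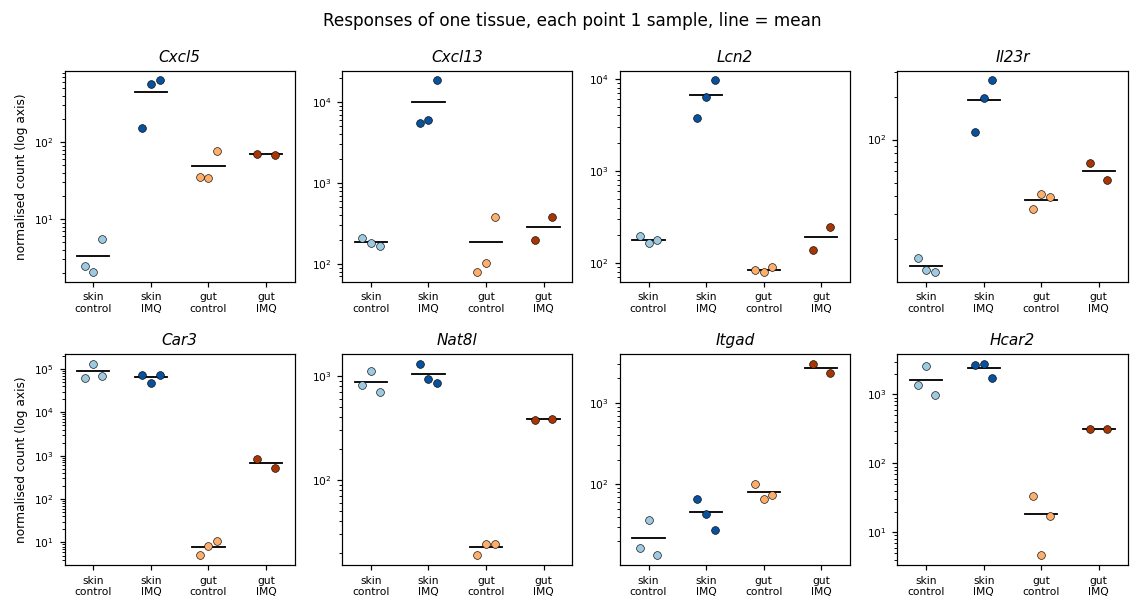
Normalised counts on a log axis for 8 genes with a response in one tissue, each point 1 sample and each line the mean of its group. Cxcl5, Cxcl13, Lcn2 and Il23r were higher in IMQ skin than in control skin, and Car3, Nat8l, Itgad and Hcar2 were higher in IMQ than in control small intestine.

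A response of the small intestine alone was called for 131 genes (0.723%), 121 higher and 10 lower in IMQ. In skin 102 of the 131 had an estimate under 0.5 in absolute size, a share near that among the genes with no call in any contrast (12815 of 15877). The largest difference was that of Car3, a carbonic anhydrase of adipocytes and muscle. It had 62190, 132300 and 68120 normalised counts in control and 72900, 47390 and 71450 in IMQ skin, but 5.02, 8.08 and 10.7 in control and 835 and 517 in IMQ small intestine. The gene was abundant in all skin samples without a called change, and near absent from control small intestine, with log2 fold changes of -0.45 and 6.37 (difference 6.83, SE 0.58, adjusted p = 0.00049). Nat8l, which makes N-acetylaspartate, had 819, 1110 and 698 in control and 1314, 939 and 849 in IMQ skin, and 18.8, 24.2 and 24.5 in control and 379 and 387 in IMQ small intestine (difference 3.83, SE 0.35, adjusted p = 0.0006). Tmem26 (0.23 and 3.86) and Hcar2, a receptor of niacin and beta-hydroxybutyrate (0.55 and 4.10), rose likewise. Hcar2 had 1372, 2593 and 979 normalised counts in control and 2699, 2806 and 1742 in IMQ skin, where the groups overlapped, and 33.9, 4.62 and 17.0 in control and 316 and 312 in IMQ small intestine. Adipose tissue is among the known sites of expression of these genes. Of 7 tested genes of the adipocyte lipid list, 0 were called in the small intestine by edgeR, DESeq2 or limma-voom (4 at an unadjusted p under 0.05), and their median there was 0.56. The interaction was called for 0 of them by edgeR, 2 by DESeq2 and 1 by limma-voom (3 at an unadjusted p under 0.05 by edgeR). The adipocyte markers Adipoq, Plin1 and Lep had 0 counts in all control small intestine libraries, 7, 4 and 0 in IMQ replicate 10 and 0 in replicate 11. The sum of the 4 adipocyte markers, carried there by Cidec, was 20.9 to 65.4 CPM in control and 80.5 and 97.8 in IMQ small intestine. Its part in the rise of these genes was not tested.

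Genes of leukocytes were also part of the small intestine-only response. Itgad, the alpha D chain of a beta 2 integrin of macrophages, had 16.3, 36.8 and 13.3 normalised counts in control and 65.5, 43.4 and 27.6 in IMQ skin, and 100, 65.8 and 74.5 in control and 3048 and 2359 in IMQ small intestine. It was at 1.07 in skin (adjusted p = 0.13) and 5.08 in the small intestine (difference 4.0, SE 0.56, adjusted p = 0.006), and without skin control replicate 2 it was shared. Itgax, which encodes CD11c, was at 0.05 and 2.80 (difference 2.75, adjusted p = 0.0099). Klrb1b, an inhibitory receptor of NK cells, was at -0.36 and 3.54, P2ry10b at 0.69 and 4.09, and the adhesion molecule gene Nrcam at -0.39 and 3.36. The noncoding RNA Gm30474 was at 0.00 in skin and 3.75 in the small intestine. Hmox1, which degrades heme, was at 0.50 and 2.53 (difference 2.03, adjusted p = 0.013), and Ighm, the heavy chain of IgM, at 0.51 and 2.13 (adjusted p = 0.039). For Ighm the interaction was called in 3 of the 11 fits without 1 library.

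Of 11 tested genes of fatty acid oxidation and PPAR-alpha targets, 2 were higher in the small intestine and 0 were called in skin by edgeR, DESeq2 or limma-voom or at an unadjusted p under 0.05.

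Of the 10 small intestine-only genes that fell, 2 encode activating C-type lectins of myeloid cells. Clec5a had 173, 166 and 128 normalised counts in control and 227, 230 and 286 in IMQ skin, but 89.1, 76.2 and 102 in control and 23.5 and 17.8 in IMQ small intestine. The groups did not overlap in either tissue and moved in opposite directions, although the higher level in skin was not called (0.67, adjusted p = 0.072, against -2.09, adjusted p = 0.0014). Clec4n, which encodes dectin-2, was at 0.70 and -1.48 (difference -2.18, adjusted p = 0.013). Both lectin genes were opposite by DESeq2. Smaller falls were measured for Vopp1 (-0.90), the integrin gene Itga2 (-0.68), Papss1, which makes the sulfate donor of sulfation (-0.98), and Idi1, of isoprenoid synthesis (-0.71), at 0.22, 0.34, -0.05 and 0.16 in skin. The interaction of these genes was called in 9, 3, 4 and 1 of the 11 fits without 1 library.

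A call of the interaction alone, with neither tissue called, was obtained for 24 genes, all with estimates of opposite sign. This way of choosing genes favours opposite signs, so their number is a description only. By the smallest p these 24 genes were led by Panx1, a channel that releases ATP, with 834 to 943 normalised counts in control and 1172 to 1424 in IMQ skin, and 2665 to 4237 in control and 1959 and 2180 in IMQ small intestine (0.53 and -0.74, difference -1.27, adjusted p = 0.022). Sarm1, an NAD-cleaving Toll adaptor (-0.75 and 0.99), the noncoding RNA Gm36193 (-1.18 and 2.07), the transcription factor gene Tfec (1.11 and -1.68) and the potassium channel gene Kcng2 (-1.33 and 1.65) followed. None of these 5 was called in more than 6 of the 11 fits without 1 library.

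Lists without a call show where no difference was detected. Of 24 type I interferon-induced genes, 17 GTPase and antigen processing genes of the interferon-gamma response and 15 proliferation genes, 0 were called in skin, in the small intestine or in the interaction by edgeR's test, and 0 by DESeq2 or limma-voom. At an unadjusted p under 0.05, the interferon-induced list had 4 genes in skin, 4 in the small intestine and 1 in the interaction. The interferon-gamma list had 0, 2 and 0, and the proliferation list 1, 0 and 0. The interferon-induced list had a median of -0.11 in skin and 0.39 in the small intestine. Of 11 genes of MHC class II and its processing, 5 were lower in the small intestine, with log2 fold changes of -2.07 to -1.57, and the interaction was called for 0 (smallest adjusted p of the 5, 0.18), with 6 of the 11 at an unadjusted p under 0.05 and 0 called by DESeq2 or limma-voom. For all 5 small intestine control replicate 9 was the highest sample of its group. The cytokine Tnf was at 1.0 in skin and 1.90 in the small intestine, uncalled in both (adjusted p = 0.16 and 0.051), and was shared without skin control replicate 2. The tetraspanin gene Cd63 was at 0.18 and 0.03. Muc2, the mucin of goblet cells, had 583 normalised counts in skin control replicate 2 and 9.53 to 40 in the other skin samples. Its estimate of the difference, 2.69 (adjusted p = 0.4), was -0.11 without that library.

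**Figure D5:**
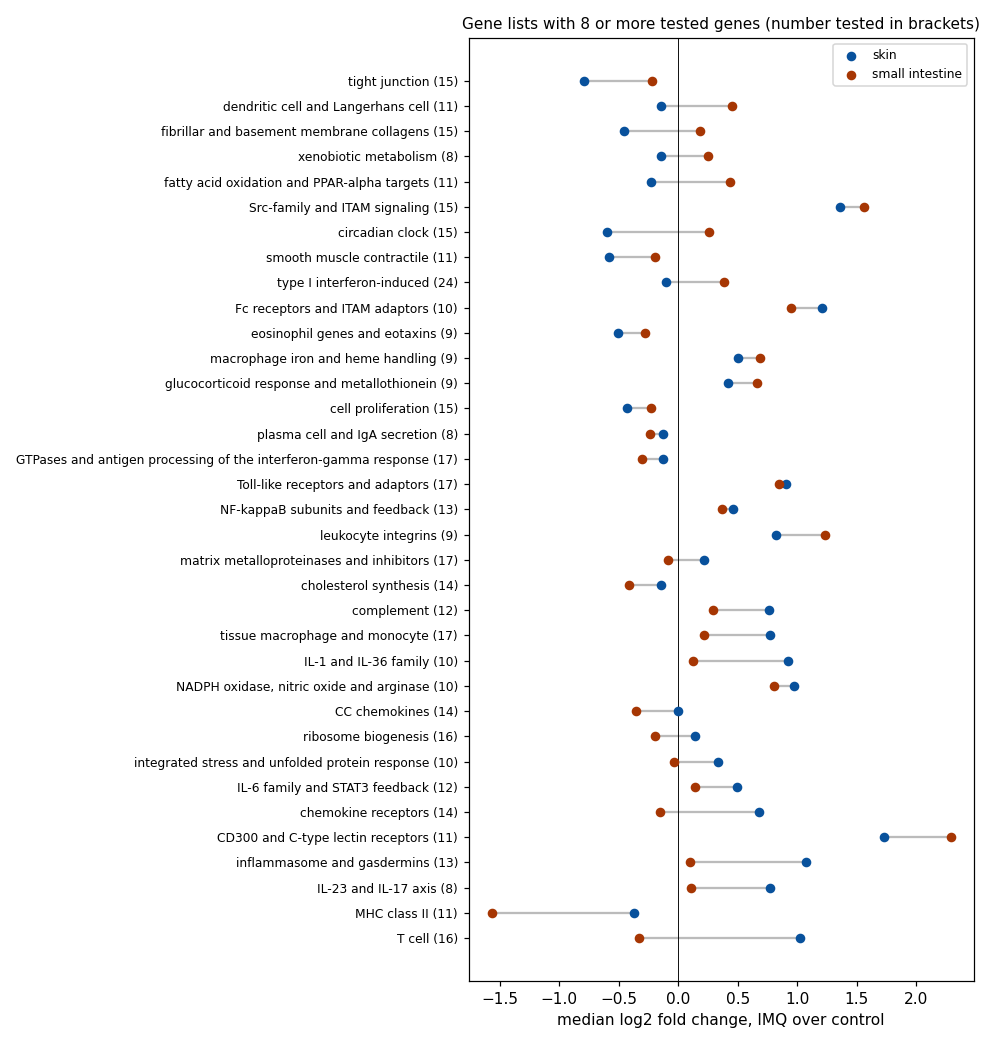
Median log2 fold change of IMQ over control in skin and in small intestine over the tested genes of each list with 8 or more of them, ordered by the median difference between tissues. The ITAM signaling list was at 1.36 in skin and 1.56 in small intestine, the inflammasome and gasdermin list was at 1.07 and 0.096, and the T cell list at 1.02 and -0.33.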

How the data were processed

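RNA was extracted with QIAzol and RNeasy, and stranded mRNA libraries were sequenced as 100-bp paired-end reads. Per the submitters' notes and methods, the authors used bcl2fastq 2.20.0, Trimmomatic, HISAT2 2.1.0 and StringTie 2.1.3b with mm10, and they deposited 1 table with whole-number read counts and no normalization. The same table holds the FPKM computed by the authors, which was used to compare levels between genes, and the TPM, which was not used. How strand and multiply matching reads were handled is not given in the sources used here, so overlapping genes and near-identical paralogs are uncertain.

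Genes with at least 1 count in all 11 libraries were normalised by relative log expression and fitted in one model of 4 groups with edgeR 4.0.16 in R 4.3.3 (quasi-likelihood test, Benjamini-Hochberg adjustment over 18108 genes, biological coefficient of variation 0.212). The standard error is the log2 fold change divided by the square root of its F statistic. Chi-square per degree of freedom between libraries of one group was 34 to 231, so none was a repeat of another. Alternatives were TMM, DESeq2 1.42.0, limma-voom (limma 3.58.1) with weights by tissue, other filters, a minimum of 1 on the absolute log2 fold change, one fit per tissue and each library left out. A test on simulated data checked the script. Positions were matched to RefSeq for 18062 genes.

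The classes, 66 gene lists (16 of them cell type markers) and the rule for named genes were chosen with earlier results of these data known. Of 653 list genes, 504 were tested. Named were all opposite genes. Among genes with a mean normalised count of at least 50 in both tissues and no overlap in the responding tissue, the 8 highest and 5 lowest of each other class were named (fewer where fewer existed), by the smaller of the 2 fold changes for shared genes and by the size of the difference for the others, with under 1 (log2) in the other tissue. Also named were the 5 genes of the interaction alone with the smallest p, up to 4 called members of each list by the smallest p of the interaction, and genes that the study names. Some genes that the rule names are not reported here.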

Additional observations from a re-analysis of the deposited data

Results flagged for a closer look

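The genes named above whose response differed between the tissues, by the test of the interaction, are given here with that difference (log2 fold change in small intestine minus that in skin). Of 88 such genes, 41 kept the call in all 11 fits without 1 library. Opposite genes were Gsdmc2 (-6.16), Mab21l3 (-2.97), Casp1 (-1.39), Rdx (1.13), Atp8b2 (1.19), Slc35e3 (1.43), Bcl2 (1.67), Ephx1 (2.0), Dipk2a (2.07), Pparg (2.1), Cdr2 (2.1), Gm7902 (2.12), Rab7b (2.15), Camkk1 (3.67), Zcwpw1 (3.77), Paqr7 (4.89) and Ear2 (5.40). Shared genes with a larger rise in the small intestine were Tlr8 (2.51), Sirpa (1.64), Clec4a1 (2.58), Clec4a3 (3.12), Fcer1g (1.51), Syk (1.19), Fgr (1.58), Itgb2 (1.58), Slc11a1 (1.25) and Icam1 (1.12), and those with a larger rise in skin Tlr1 (-1.11), Tlr13 (-1.21), S100a9 (-7.22) and Cxcl1 (-2.21). Skin-only genes that rose were Cxcl5 (-6.47), Tcf23 (-5.42), Cxcl13 (-5.16), Trgv2 (-4.92), Blk (-4.88), Tcrg-C2 (-4.58), Lgi2 (-3.74), Vnn3 (-3.57), Il23r (-3.19), Il33 (-2.50), Lif (-1.88), Bcl3 (-1.59), Lcn2 (-4.04), Slpi (-5.83), Zc3h12a (-2.69), Tgm3 (-2.94), Ccr1 (-3.11), Cxcr6 (-3.22), Selp (-2.29), Mmp9 (-3.05), Mmp13 (-5.65), Gsdmc4 (-5.03), Pycard (-0.87), Hdc (-2.27), Trdc (-3.31) and Cd22 (-4.25). Those that fell were Adh6a (5.39), Ggt1 (5.26), Mycn (4.24), Dab1 (4.16), Scube3 (3.93), Cldn3 (3.57) and Marveld2 (1.07). Small intestine-only genes that rose were Car3 (6.83), Klrb1b (3.90), Nat8l (3.83), Nrcam (3.75), Gm30474 (3.75), Tmem26 (3.64), Hcar2 (3.54), P2ry10b (3.40), Itgax (2.75), Itgad (4.0), Irf5 (1.37), Hmox1 (2.03) and Ighm (1.62), and those that fell Clec5a (-2.76), Clec4n (-2.18), Vopp1 (-1.13), Itga2 (-1.03), Papss1 (-0.93) and Idi1 (-0.88). The interaction alone was called for Panx1 (-1.27), Sarm1 (1.74), Gm36193 (3.25), Tfec (-2.79) and Kcng2 (2.98). The groups held at most 3 samples, too few for a test of single samples that stand apart.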

How the results depend on the processing

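DESeq2 called the interaction for 1281 genes in place of 462, and gave 710 skin-only, 261 small intestine-only and 65 opposite genes in place of 247, 131 and 17. Without a filter on low counts 31083 genes were tested, the interaction was called for 301 of them and 150 were skin-only. When the log2 fold change also had to reach 1 in absolute size, the opposite genes were 6, namely Ear2, Camkk1, Paqr7, Mab21l3, Gsdmc2 and Zcwpw1. One fit per tissue gave 242 shared and 17 opposite genes, of which 8 of the opposite ones were among the 17 above. Over the fits without 1 library, the interaction ranged from 144 to 1072 genes, skin-only genes from 75 to 747, small intestine-only genes from 50 to 164, opposite genes from 6 to 29 and shared genes from 205 to 371. The interaction count was lowest without either IMQ small intestine library (144 without replicate 10 and 191 without replicate 11), where the lone sample left is assumed to vary like the other groups, and highest without skin control replicate 2. It also moved by over 1.5 times without skin control replicate 1 (247), skin IMQ replicates 4 (293) and 5 (200) and small intestine control replicates 8 (272) and 9 (262). Opposite genes were 29 without small intestine control replicate 7, and 7 without replicate 8 or 11. The shared count stayed within 1.5 times under every alternative run. Of the values of the difference for 122 named genes, TMM changed no call, and leaving out 1 library ended a call in 238 cases. The sign of the difference turned for 7 genes, all uncalled. These were Clec12a without skin control replicate 2 (-0.038) or IMQ replicate 11 (-0.024) in a range of -0.038 to 0.257, and Cldn8 without skin control replicate 1 (0.0465), IMQ replicate 4 (0.163), control replicate 8 (0.151) or IMQ replicate 11 (0.51) in a range of -1.25 to 0.51. Il1b turned without IMQ replicate 11 (-0.47 to 0.85), Ccl3 without IMQ replicate 6 (-0.056) or 11 (-0.502 to 0.721), Tlr7 without replicate 3 (0.219), 5 (0.088), 7 (0.051) or 10 (0.028) in a range of -0.279 to 0.219, Fcgr1 without control replicate 7 (-0.373 to 0.091) and Muc2 without skin control replicate 2 (-0.11 to 3.63). The cause of these shifts was not tested. No paired analysis was possible because the labels do not state which tissues came from one mouse.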
